A study of Danio rerio with 73 samples.

Results

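The 34 CpGs described here lie in 3 short stretches of the zebrafish genome that were amplified from bisulfite-treated gonad DNA. They were taken as the CpGs with at least 10 reads in at least 50% of the 73 fish, within 450 bp of 3 given starting points (positions in GRCz10, the build named in the submitters' processing notes). Under that coverage rule 324 CpGs of the 25217 listed were kept in the whole panel, and 323 of them fell into 20 amplicons. The 3 amplicons had been selected on their moderate difference in methylation level between testis and ovary, so every testis against ovary value below is a description of what chose them and carries no test. As the mean of the fish with prefix 128 and prefix 204 at 28 °C, the testis level exceeded the ovary level by 10.1 percentage points for the amplicon on chromosome 19, by 11.1 points for that on chromosome 25 and by 11.2 points for that on chromosome 16. The nearest amplicon below them, on chromosome 20, differed by 5.51 points, and the nearest above, on an unplaced scaffold, by 18.9 points.

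All fish were of the AB strain, reared in an aquarium facility, and their gonads were taken at 90 days of age. They had been kept at 28 or 36 °C while the gonads developed, and all libraries carry 128 or 204 as a prefix in their titles, which the labels do not define. With prefix 128 there were 12 testes from 36 °C, 13 testes from 28 °C and 9 ovaries from 28 °C. With prefix 204 there were 8 testes from 36 °C, 10 testes from 28 °C, 12 ovaries from 36 °C and 9 ovaries from 28 °C. No ovaries with prefix 128 came from 36 °C, so temperature could be compared in ovaries with prefix 204 only. Each library is 1 fish, and no 2 libraries held identical values.

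In vertebrates most DNA methylation sits on the cytosine of CpG dinucleotides, where it is copied to the new strand after replication by the maintenance methyltransferase. Methylation of a promoter is commonly found with low transcription of its gene, and CpG-rich promoters of active genes are usually free of it. In zebrafish the sperm genome is more methylated than that of the oocyte, and warm water during gonadal development shifts sex ratios towards males. Bisulfite converts unmethylated cytosine so that it is read as T, while methylated cytosine is still read as C. The methylation level of a CpG is the percentage of its reads that show C. A T in the genome itself is therefore counted as an unmethylated read. Each level averages over all cells of a gonad, so a different makeup of cell types and a different level within cells cannot be told apart. The labelled tissue could not be checked against marker genes, because no expression was measured.

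The amplicon on chromosome 16 (54645605 to 54645858, 254 bp, minus strand) held 19 CpGs with gaps of 2 to 57 bp. The amplicon on chromosome 19 (27434975 to 27435361, 387 bp, plus strand) held 7 CpGs with gaps of 3 to 179 bp. The amplicon on chromosome 25 (22224443 to 22224607, 165 bp, plus strand) held 8 CpGs with gaps of 4 to 54 bp. A ninth CpG in the chromosome 25 window, at 22224673, had 10 reads in 0 fish and was left out. The study chose promoter regions of 18 genes, but the deposited tables pair no CpG with a gene, so the 3 amplicons are named here by position.

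Libraries held between 711295 and 12565602 CpG calls, with a median of 6019465, except for 1 ovary from 36 °C with prefix 204 (fish 14) that held 1404 and gave no level at any of the 3 amplicons. The median depth per CpG was 9741 reads on chromosome 16 and 8936 reads on chromosome 19. On chromosome 25 it was 304 reads, and the 12 testes from 36 °C with prefix 128 had 0 reads there. The amplicon level of a fish is the mean over those of its CpGs that had a level, so the CpGs averaged can differ between fish. Amplicon levels were available for 68, 72 and 51 fish on chromosomes 16, 19 and 25. Reads from PCR without molecular identifiers are not independent molecules, so counting error understates the error of a level. Groups were therefore compared over fish, and intervals from read counts, given at 2 CpGs near 0%, cover counting error only.

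Over all fish with a level, the mean was 73.6% on chromosome 16 (range 53.1 to 91.5%), 70.4% on chromosome 19 (54.5 to 85.8%) and 49.3% on chromosome 25 (30.5 to 76.5%). Ovaries and the testes from 28 °C with prefix 204 lay low in these ranges, and most other testes lay high.

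On chromosome 16, testes with prefix 128 had levels of 84.9, 87.4 and 89.4% (lowest, median and highest of 11 fish) after 36 °C and of 65.3, 86.9 and 89.1% (13 fish) after 28 °C. Testes with prefix 204 had 62.9, 85.0 and 91.5% (8 fish) after 36 °C and 53.1, 61.4 and 76.0% (10 fish) after 28 °C. Ovaries had 53.4, 63.8 and 76.3% at 28 °C with prefix 128 (7 fish), 57.7, 67.7 and 78.9% at 36 °C with prefix 204 (11 fish), and 56.8, 60.2 and 77.1% at 28 °C with prefix 204 (8 fish). All 11 testes from 36 °C with prefix 128 lay above the highest ovary. So did 11 of 13 testes from 28 °C with prefix 128 and 6 of 8 from 36 °C with prefix 204, but 0 of the 10 from 28 °C with prefix 204.

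On chromosome 19 the testes from 28 °C with prefix 204 again had the lowest median of the testis groups, but it lay above those of the ovaries. Testes with prefix 128 had 73.4, 78.6 and 85.8% (12 fish) after 36 °C and 56.6, 83.0 and 84.9% (13 fish) after 28 °C. Testes with prefix 204 had 68.4, 82.8 and 84.4% (8 fish) after 36 °C and 57.5, 65.8 and 71.1% (10 fish) after 28 °C. Ovary medians were 59.5% at 28 °C with prefix 128 (9 fish), 62.7% at 36 °C with prefix 204 (11 fish) and 62.2% at 28 °C with prefix 204 (9 fish), and the highest ovary reached 68.4%. In these groups, in the order given, 12 of 12, 11 of 13, 8 of 8 and 3 of 10 testes lay above every ovary.

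On chromosome 25 testes from 28 °C with prefix 128 had 39.9, 65.3 and 76.4% (7 fish). Of these, fish 4, 5 and 11 (73.8, 75.2 and 76.4%) had no level at 22224492, nor had ovary fish 7 of that prefix (45.3%). Their means leave out a CpG that was at 0% in the other fish with prefix 128. Differences on chromosome 25 were not recalculated over a shared set of CpGs. Testes with prefix 204 had 45.2, 71.8 and 76.5% (7 fish) after 36 °C and 37.7, 41.5 and 46.0% (8 fish) after 28 °C. Ovary medians were 41.8% at 28 °C with prefix 128 (9 fish), 47.2% at 36 °C with prefix 204 (11 fish) and 42.3% at 28 °C with prefix 204 (9 fish), with the highest ovary at 53.2%. Here 6 of 7, 5 of 7 and 0 of 8 testes lay above every ovary.

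**Figure D1:**
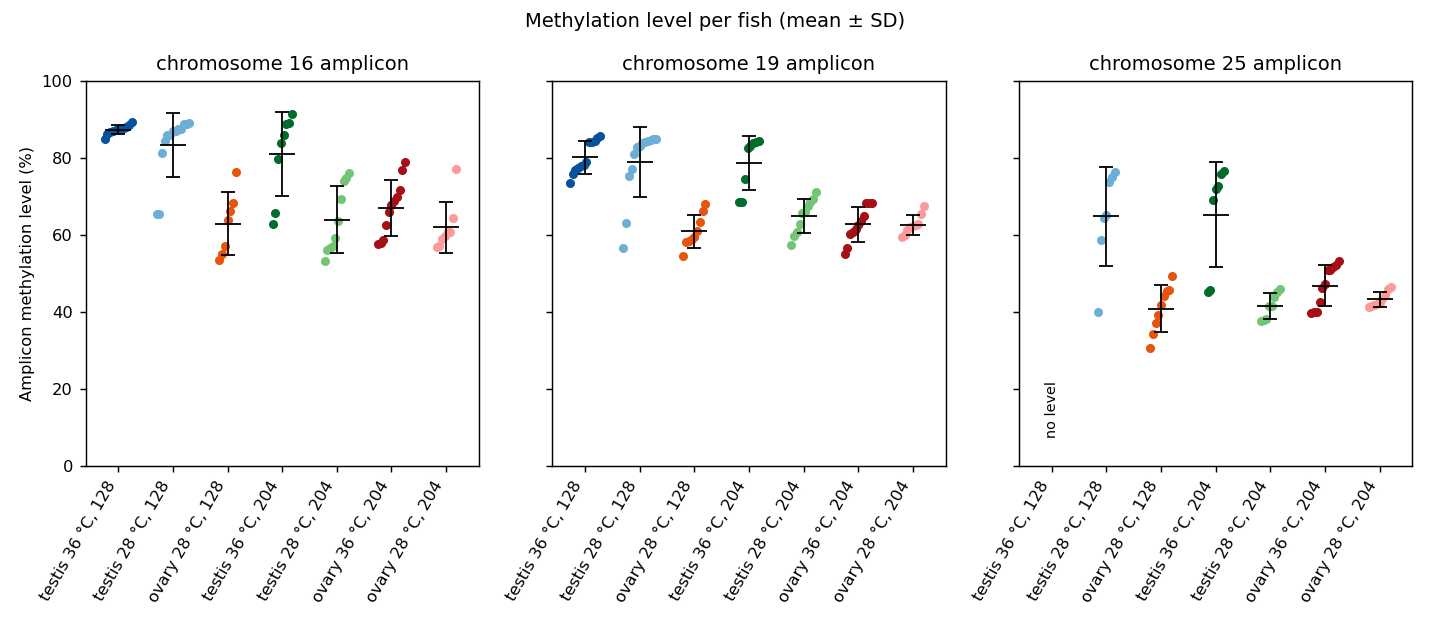
Amplicon methylation level (percent, mean of the CpGs) of each fish by group for the amplicons on chromosomes 16, 19 and 25; a point is 1 fish and the bars give the mean and SD of a group. The 10 testes from 28 °C with prefix 204 lie with the ovaries on chromosome 16, where none passes 76.0%, and no testis from 36 °C with prefix 128 has a level on chromosome 25.

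Inside the groups of testes, 4 libraries stood apart at all amplicons where they had a level. Among the testes from 36 °C with prefix 204, fish 1 had 65.8, 68.4 and 45.2% on chromosomes 16, 19 and 25, and fish 17 had 62.9, 68.5 and 45.7%. Among the testes from 28 °C with prefix 128, fish 22 had 65.3, 56.6 and 39.9%, and fish 20 had 65.4 and 63.0% on chromosomes 16 and 19, with no level on chromosome 25. The levels of fish 1 and 17 lay within the ranges of the testes from 28 °C with the same prefix, 204. Those ranges were 53.1 to 76.0, 57.5 to 71.1 and 37.7 to 46.0% on chromosomes 16, 19 and 25. All levels of the 4 libraries also lay within or close to the ovary range, whatever the label. Results that rest on these fish are given with and without them. They were set aside for their low levels, so leaving them out narrows the spread of their groups by selection. P-values, calls and counts of CpGs without overlap do not allow for that choice.

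The gonad difference was large in the fish with prefix 128 and after 36 °C, and small at 28 °C with prefix 204. At 28 °C with prefix 128, testes exceeded ovaries by 20.5 points on chromosome 16 (SE 3.86), 18.0 points on chromosome 19 (SE 2.88) and 23.9 points on chromosome 25 (SE 5.24). The last value includes the fish without a level at 22224492. At 36 °C with prefix 204 testis and ovary means were 81.0 and 67.0% on chromosome 16 (SE of the difference 4.43), and testes exceeded ovaries by 16.0 points on chromosome 19 (SE 2.86) and 18.6 points on chromosome 25 (SE 5.45). At 28 °C with prefix 204 the differences were 2.02 (SE 3.62), 2.27 (SE 1.65) and -1.78 points (SE 1.34). The groups overlapped in all of these except on chromosome 19 after 36 °C, where the lowest testis (68.43%) lay just above the highest ovary (68.38%). Across the panel the groups of that comparison did not overlap in 10.5% of amplicons. Without the 4 libraries that stood apart, the differences were 23.8, 21.5 and 28.1 points at 28 °C with prefix 128, and 19.5, 19.4 and 26.5 points at 36 °C.

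At single CpGs the testis mean was above the ovary mean at 31 of 33 at 28 °C with prefix 128 (53.8% of all kept CpGs), at 34 of 34 at 36 °C with prefix 204 (75.5%), and at 16 of 34 at 28 °C with prefix 204 (57.1%). The groups overlapped at every one of these CpGs, against shares without overlap of 0, 1.88 and 0% of kept CpGs in the same order. Without the 4 libraries, 17 of the CpGs did not overlap at 28 °C with prefix 128 (7, 4 and 6 on chromosomes 16, 19 and 25), where 23.8% of kept CpGs did not. At 36 °C, 19 did not overlap (7, 5 and 7), where 26.8% of kept CpGs did not.

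On chromosome 16 the gonad difference was uneven along the amplicon in the fish with prefix 128 and after 36 °C, but not at 28 °C with prefix 204. At the first 4 CpGs by coordinate (54645605 to 54645632) testes and ovaries differed by -0.376 to 6.80 points at 28 °C with prefix 128. At the next 6 (54645651 to 54645699) they differed by 14.4 to 30.3 points, and at the last 8 (54645725 to 54645858) by 19.7 to 48.3 points. After 36 °C with prefix 204 the same stretches differed by 1.48 to 4.39, 4.69 to 20.6 and 10.4 to 37.4 points. At 28 °C with prefix 204 they differed by -1.46 to 5.75, -3.51 to 6.49 and -3.49 to 5.69 points. The eleventh CpG, at 54645721, is described separately below.

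The most constant CpG of the chromosome 16 amplicon was the one at 54645605, whose group means all lay between 93.0 and 96.3%. Its gonad difference averaged over the 3 strata of prefix and temperature was -0.0830 points, and that of 54645632 was 2.38 points. The CpG at the other end, 54645858, differed most, with a mean gonad difference of 28.9 points, followed by 54645801 with 26.0 points. At 54645858 the group means ran from 29.7% in ovaries from 28 °C with prefix 204 to 91.5% in testes from 36 °C with prefix 128, which is a range of 61.8 points.

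On chromosome 19 the mean gonad difference was largest at 27435056, with 29.9 points, and next at 27435238, with 17.3 points. It was smallest at 27435361, with 0.990 points, and at 27435325, with 6.37 points. Fish 7 of the testes from 28 °C with prefix 204 had 1.22% at 27435361 from 82 reads, and without it the difference there was 3.97 points, still the smallest of the 7. The CpG at 27435056 was the one place among the 34 where testes also lay well above ovaries at 28 °C with prefix 204, by 19.9 points, with 6.49 points the next largest. There the testes ranged from 24.6 to 100% (10 fish) and the ovaries from 34.1 to 73.2% (9 fish), so the groups overlapped. Without fish 7 the difference there was 16.1 points. In the same stratum it turned from 2.85 to -2.70 points at 27435238 and from -2.89 to 2.32 points at 27434975. It also turned from -7.80 to 1.15 points at 27435361, from 0.990 to -0.820 points at 27435321 and from 0.515 to -0.329 points at 27435325.

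On chromosome 25 the mean gonad difference was largest at 22224496, with 22.5 points, and at 22224488, with 19.2 points. It was smallest at 22224550, with 5.15 points, and at 22224443, with 5.83 points. The value at 22224443 averages unlike strata, whose differences ran from -1.12 to 18.4 points. At 28 °C with prefix 128, its means were 0.416% in testes and 0.248% in ovaries, both too low to show a large difference. At 36 °C with prefix 204, they were 36.8% in testes and 18.4% in ovaries. The CpG at 22224550 was also the most methylated of the 8, with group means from 72.5% to 87.2%.

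**Figure D2:**
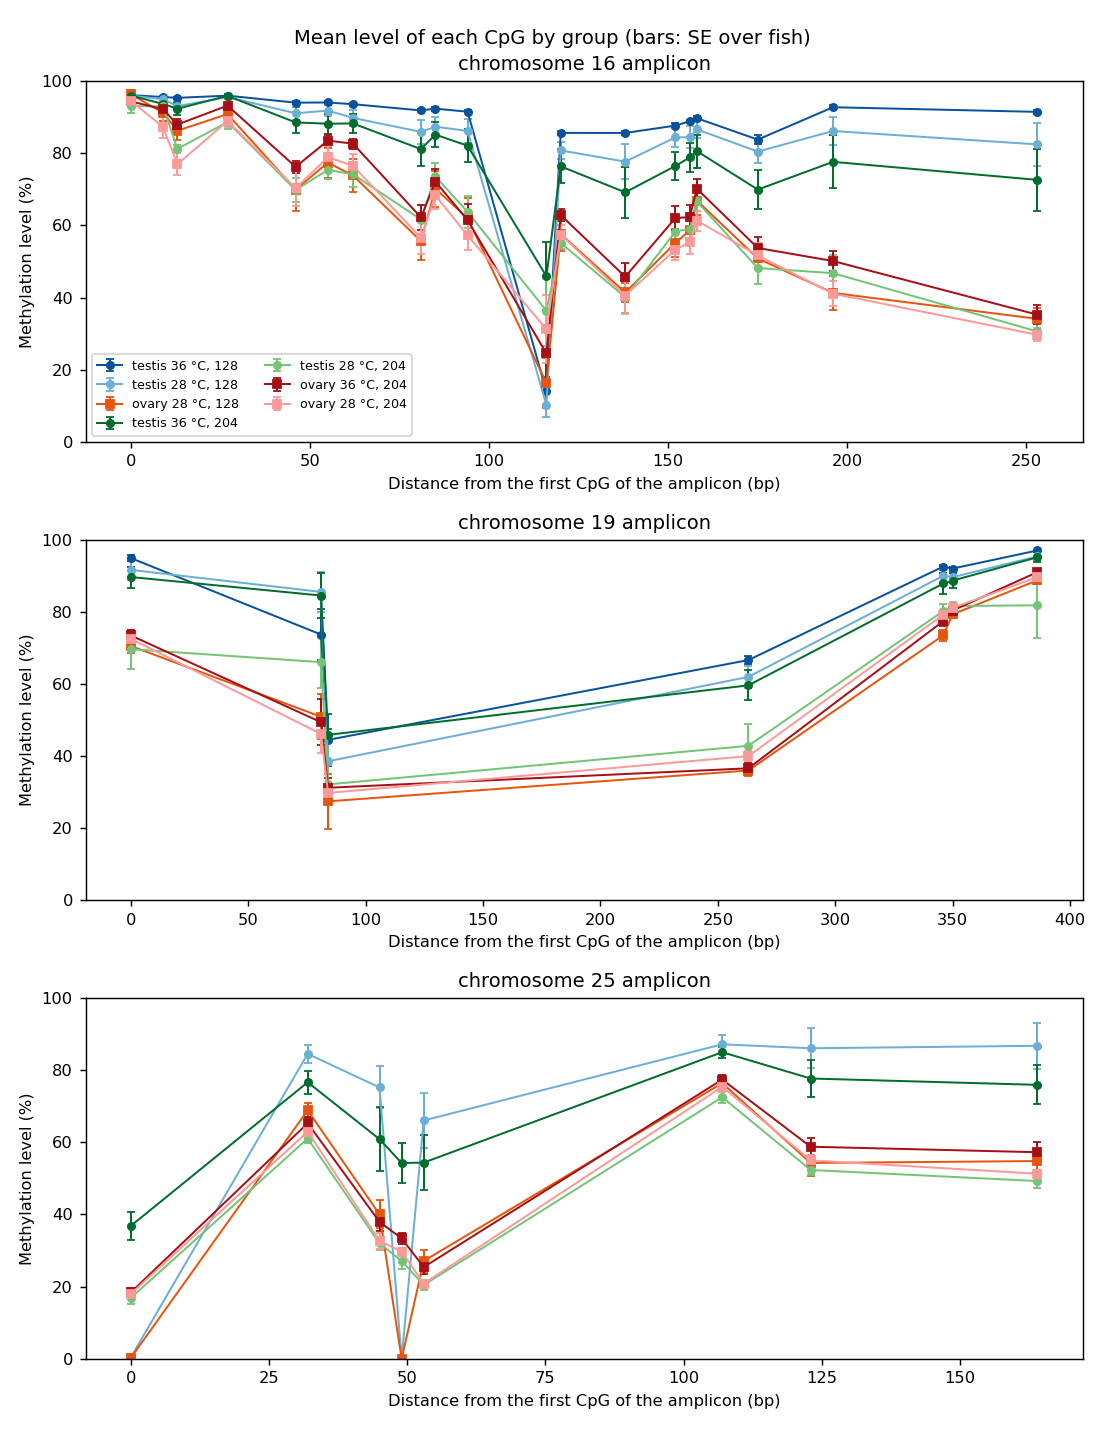
Mean methylation level (percent, with SE, groups of at least 4 fish) at each CpG of the amplicons on chromosomes 16, 19 and 25 against its distance in bp from the first CpG, 1 line per group. Groups meet near 95% at the start of the chromosome 16 amplicon and lie between 29.7 and 91.5% at its last CpG.

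**Figure D3:**
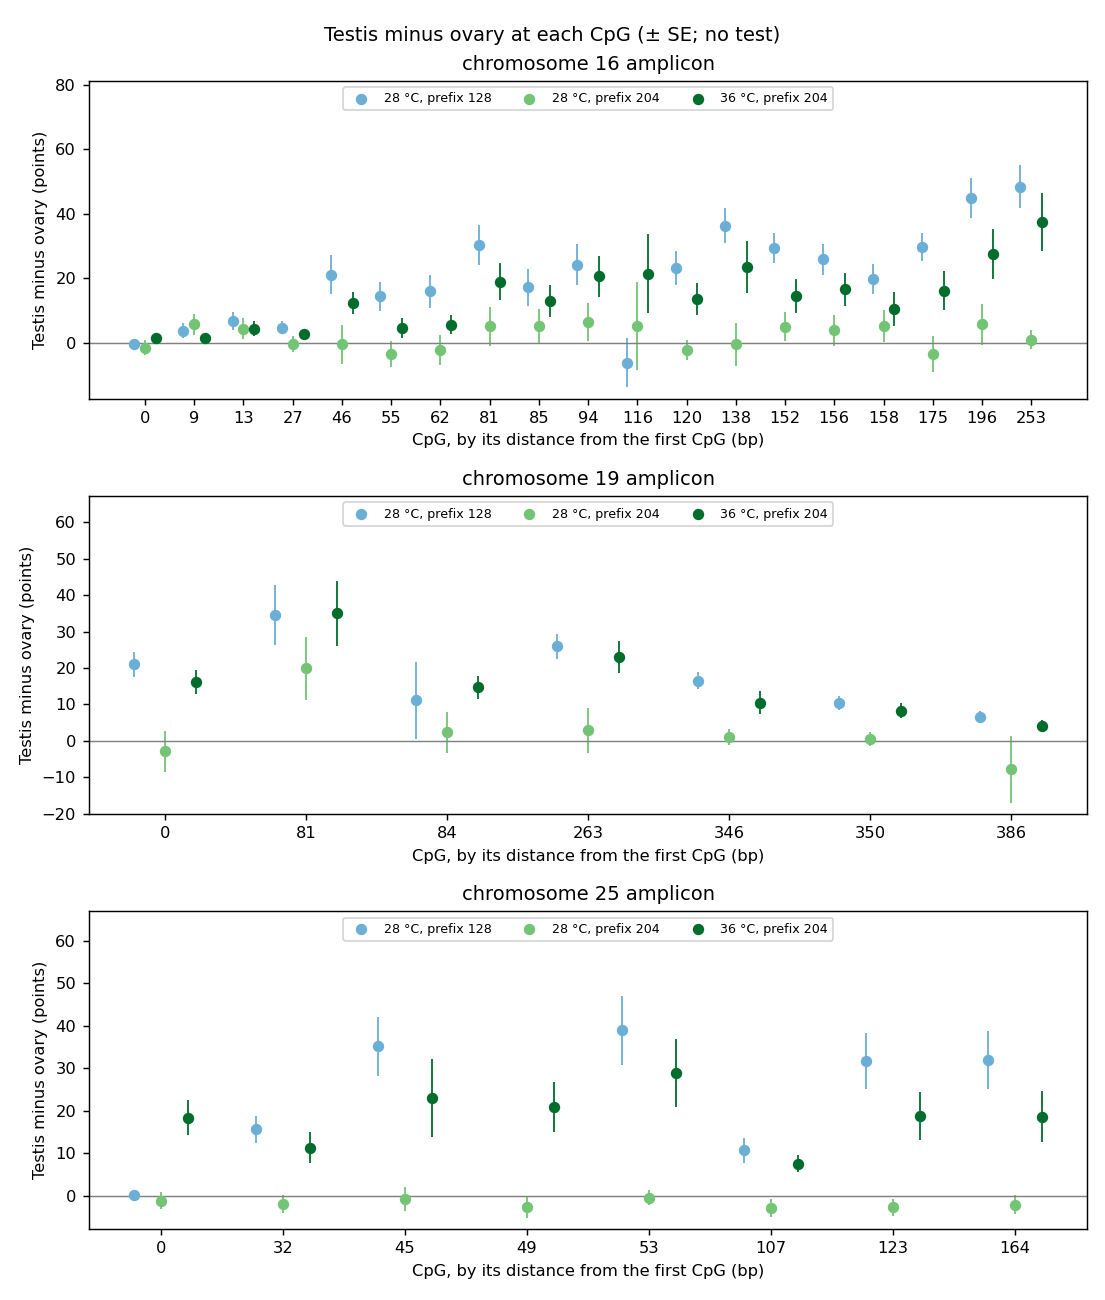
Testis minus ovary difference (percentage points, with SE) at each CpG for the 3 strata of prefix and temperature, drawn where both groups have at least 5 fish. The stratum at 28 °C with prefix 204 lies between -7.80 and 6.49 points, apart from 27435056, where it is 19.9 points. The lowest value, at 27435361, is 1.15 points without fish 7 of the testes.

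Whether warm water during gonadal development left a trace in the adult gonad was asked by comparing fish from 36 and 28 °C within tissue and prefix. Differences were tested with a two-sided permutation test of the mean, exact where a group had fewer than 10 fish, with Benjamini-Hochberg adjustment over all kept CpGs or all amplicons and a threshold of 0.05. The testes and ovaries from 28 °C also entered the values by which the amplicons were picked, so the choice bears on their comparisons as well.

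In testes with prefix 204, all 3 amplicons were more methylated after 36 °C than after 28 °C. The level rose by 17.02 points on chromosome 16 (SE 4.75, exact permutation test, adjusted p = 0.00543), with 7 of 8 fish from 36 °C above the mean at 28 °C. On chromosome 19 it rose by 13.8 points (SE 2.89, exact permutation test, adjusted p = 0.00391), with 8 of 8 fish above the mean at 28 °C. On chromosome 25 it rose by 23.8 points (SE 5.33, exact permutation test, adjusted p = 0.00391), with 7 of 7 fish above that mean. Such calls were common in this panel, with 68.4% of amplicons past the threshold in this comparison. Without fish 1 and 17, set aside for their low levels, the rises were 22.6, 17.3 and 31.8 points (exact permutation test, adjusted p = 0.000678, 0.000678 and 0.00134).

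By CpG, 24 of the 34 rose and 0 fell in testes with prefix 204, against 31.7% of all kept CpGs called in either direction, 29.8% called higher and 1.88% called lower. The called CpGs were 14 of 19 on chromosome 16, 2 of 7 on chromosome 19 and 8 of 8 on chromosome 25. The median difference was 18.3 points over the 34 CpGs and 0.416 points over all kept CpGs. The latter median covers amplicons with mean levels over all fish from 0.41 to 94.8%, so it mixes very unlike levels. Without fish 1 and 17 there were 27 called CpGs, of which 23 were among the 24, against 41.6% of kept CpGs in the same fit.

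On chromosome 16 the rise was largest at the last CpG by coordinate. At 54645858 the level was 29.4, 85.4 and 90.5% (lowest, median and highest) in 8 testes from 36 °C and 18.3, 30.9 and 45.1% in 10 from 28 °C. The difference was 42.0 points (SE 8.89, exact permutation test, adjusted p = 0.00684), with fish 17 and fish 1 from 36 °C in the range of the 28 °C fish. At 54645801 the level rose by 30.8 points, from a mean of 46.8 to one of 77.6% (SE 8.98, exact permutation test, adjusted p = 0.0173), and at 54645743 by 29.1 points, from 40.1 to 69.1% (SE 8.30, exact permutation test, adjusted p = 0.0155). The 5 CpGs that did not pass were 54645605, 54645614, 54645690, 54645721 and 54645763. Of these, 54645605 had 95.9% after 36 °C and 93.0% after 28 °C.

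On chromosome 19, 27434975 and 27435325 passed. At 27434975 the level was 73.7, 94.0 and 95.3% after 36 °C (8 fish) and 22.7, 73.3 and 84.3% after 28 °C (10 fish), a rise of 19.99 points (SE 6.16, exact permutation test, adjusted p = 0.0107). The lowest of these, 22.7%, came from fish 7, which had 22 reads there. Without that fish the rise was 14.8 points and still passed. At 27435325 the rise was 7.05 points, from 81.6 to 88.6% (SE 2.33, exact permutation test, adjusted p = 0.0312), and it no longer passed without fish 2, 11, 13 or 18 from 36 °C, each left out alone (adjusted p up to 0.0590). The other 5 CpGs had higher means after 36 °C by 7.63 to 18.5 points, without passing.

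On chromosome 25 the rise was seen at every CpG and was largest at 22224496. There the level was 23.4, 62.0 and 71.2% after 36 °C (7 fish) and 15.6, 18.9 and 27.5% after 28 °C (8 fish), a difference of 33.9 points (SE 7.86, exact permutation test, adjusted p = 0.00708). At 22224492 the level was 36.0, 55.6 and 72.5% after 36 °C and 16.1, 25.9 and 35.4% after 28 °C, so the groups did not overlap. Its difference was 27.1 points (SE 6.10, exact permutation test, adjusted p = 0.00684), and it was the one CpG of the 34 without overlap, against 3.13% of kept CpGs. At 22224488 the rise was 28.9 points (SE 8.98, exact permutation test, adjusted p = 0.0320). That call was lost when any of 10 fish was left out alone, namely fish 11 or 13 from 36 °C or any of the 8 from 28 °C (adjusted p up to 0.0590).

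In testes with prefix 128, 0 of the 26 CpGs that could be tested differed between 36 and 28 °C, as did 0% of all kept CpGs. At an unadjusted p below 0.05 the permutation test called 0 of these CpGs and 5.75% of all kept CpGs, and limma and a quasi-binomial model on the reads also gave 0 adjusted calls among the 26, against 0 and 2.88% of kept CpGs. The amplicon differences were 3.95 points on chromosome 16 (SE 2.32, permutation test, adjusted p = 0.428) and 1.23 points on chromosome 19 (SE 2.80, permutation test, adjusted p = 0.713), with 0% of amplicons called. Chromosome 25 could not be tested, since the testes from 36 °C had no reads there. Without fish 20 and 22 the differences were 0.670 points (adjusted p = 0.614) and -2.24 points (adjusted p = 0.453) by the same permutation test. At 27435056 the mean was 73.7% after 36 °C and 85.5% after 28 °C, the one CpG with a lower mean after 36 °C.

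In ovaries with prefix 204, 0 of 34 CpGs passed, as did 0% of all kept CpGs. At an unadjusted p below 0.05 the permutation test called 3 of them, all on chromosome 16 (54645618, 54645632 and 54645763), against 6.80% of all kept CpGs. Limma called 0 of the 34 and the quasi-binomial model 1, against 0 and 1.36% of kept CpGs. The amplicon differences were 5.04 points on chromosome 16 (SE 3.20, exact permutation test, adjusted p = 0.360), 0.150 points on chromosome 19 (SE 1.61, exact permutation test, adjusted p = 0.930) and 3.50 points on chromosome 25 (SE 1.74, exact permutation test, adjusted p = 0.241). The ovary groups overlapped at all 3, and 0% of amplicons were called.

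Whether the temperature difference in testes depended on the prefix was tested as an interaction in limma. The difference was greater with prefix 204 than with prefix 128 by 13.1 points on chromosome 16 (SE 4.90, adjusted p = 0.0199) and by 12.6 points on chromosome 19 (SE 4.09, adjusted p = 0.00829), where 55.6% of amplicons passed. By CpG, 6 of 26 passed, all on chromosome 16, against 18.0% of kept CpGs. They were 54645618, 54645632, 54645651, 54645660, 54645725 and 54645858. At 54645858 the interaction was 33.0 points (SE 10.1, limma, adjusted p = 0.0199). Without the 4 libraries that stood apart, 21 of 26 CpGs passed, against 35.3% of kept CpGs, and the amplicon interactions were 21.9 points (limma, adjusted p = 2.72e-07) and 19.5 points (limma, adjusted p = 2.17e-08). Those libraries were set aside for low levels in the groups compared here, and the p-values do not allow for that choice. The model also takes 1 variance per CpG or amplicon for all groups of testes. With all fish, their SDs on chromosome 16 ran from 1.17 to 10.9 points, which its SEs and p-values do not allow for.

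**Figure D4:**
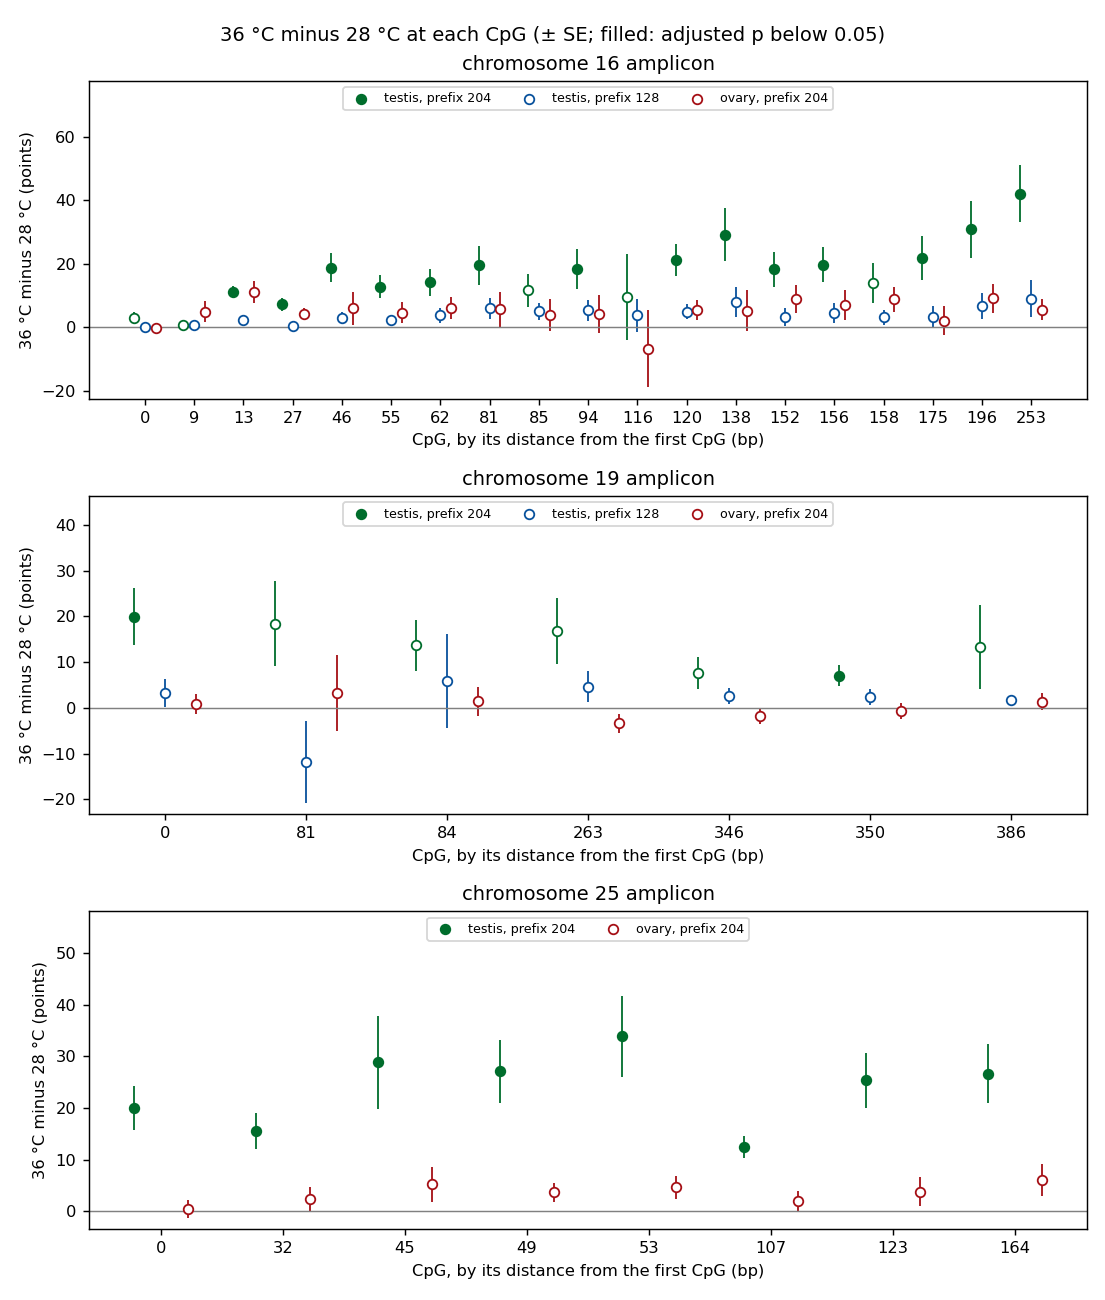
Difference between fish from 36 °C and from 28 °C (percentage points, with SE) at each CpG, for testes with prefix 204, testes with prefix 128 and ovaries with prefix 204, drawn where both groups have at least 5 fish and filled where the adjusted p is below 0.05. In testes with prefix 204 the difference reaches 42.0 points at the last CpG of chromosome 16, and the other comparisons stay between -11.8 and 11.02 points.

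The prefix went with a difference of similar size in testes from 28 °C. With prefix 128 the amplicon level was above that with prefix 204 by 19.4 points on chromosome 16 (SE 3.60, permutation test, adjusted p = 0.000457), by 14.04 points on chromosome 19 (SE 2.89, permutation test, adjusted p = 0.00136) and by 23.3 points on chromosome 25 (SE 4.98, exact permutation test, adjusted p = 0.00186). Fish 4, 5 and 11 of prefix 128 entered the chromosome 25 value without 22224492, which was at 0% in the others with prefix 128. On these amplicons 13 of 13, 11 of 13 and 6 of 7 fish with prefix 128 lay above the mean of the others, and 75.0% of amplicons were called. Without fish 20 and 22, set aside for their low levels, the differences were 22.7, 17.5 and 27.5 points (permutation test, adjusted p = 5e-05, 5e-05 and 0.000606). This comparison and that between temperatures in testes with prefix 204 share the 10 testes from 28 °C with prefix 204, so the 2 are not independent. Testes and ovaries from 28 °C with both prefixes also entered the values by which the amplicons were picked. Tests of the prefix at 28 °C, and their contrast with the panel, are therefore not free of that choice.

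By CpG, 29 of 33 differed with the prefix in testes from 28 °C, against 35.0% of kept CpGs. Of these, 27 were higher with prefix 128 (16, 5 and 6 on chromosomes 16, 19 and 25), against 26.9% of kept CpGs. The other 2, 54645721 and 22224443, were lower, against 8.12%. Groups did not overlap at 22224443, 22224475 and 22224488, against 1.56% of kept CpGs. Without fish 20 and 22, 30 CpGs passed, with all 29 among them, against 40% of kept CpGs. These shares of kept CpGs cover amplicons with mean levels over all fish from 0.41 to 94.8%, so they mix very unlike levels.

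The largest prefix difference was again at 54645858, where testes from 28 °C had 31.7, 91.1 and 95.4% with prefix 128 (13 fish) against 18.3, 30.9 and 45.1% with prefix 204 (10 fish). It came to 51.8 points (SE 6.30, permutation test, adjusted p = 0.000847). On chromosome 16, 54645801 and 54645743 followed with 39.4 and 37.6 points. On chromosome 19 the difference was 21.97 points at 27434975 (SE 6.16, permutation test, adjusted p = 0.00142) and 19.1 points at 27435238 (SE 6.71, permutation test, adjusted p = 0.0228). At 27435361 it was 13.5 points (SE 9.07, permutation test, adjusted p = 0.00960), but 4.59 points without fish 7 of prefix 204 (adjusted p = 0.0267), which had 1.22% there from 82 reads. Without the same fish the difference was 16.8 points at 27434975 and 24.6 points at 27435238, and both still passed. With limma, 27435361 did not pass (adjusted p = 0.217).

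On chromosome 25, testes from 28 °C had 46.5, 77.8 and 97.0% at 22224488 with prefix 128 (7 fish) and 25.6, 33.0 and 39.8% with prefix 204 (8 fish). The groups did not overlap, and the difference was 43.2 points (SE 6.10, exact permutation test, adjusted p = 0.000956). It was 45.6 points at 22224496 (SE 7.75, exact permutation test, adjusted p = 0.00219) and 37.5 points at 22224607 (SE 6.58, exact permutation test, adjusted p = 0.00269). With the quasi-binomial model, which weights fish by reads, neither 22224496 (adjusted p = 0.261) nor 22224607 (adjusted p = 0.372) passed. In that model the amplicon difference was 7.17 points (adjusted p = 0.199). Fish 22 of prefix 128, at 39.9% and among the libraries that stood apart, had a median of 4332 reads per CpG there. The other testes of its group had 55 to 578, so the pooled value leans on fish 22. The model was not fitted without that fish.

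In testes from 36 °C the prefix could be compared on chromosomes 16 and 19. On chromosome 16, 14 of 19 CpGs passed, with 13 higher and 1 lower with prefix 128. Of all kept CpGs 35.0% passed, 12.2% higher and 22.8% lower. On chromosome 19, 0 of 7 passed, and 4 had an unadjusted p below 0.05 in the permutation test, as did 52.7% of kept CpGs. Over both amplicons limma called 0 of 26 CpGs, against 0.643% of kept CpGs, and the quasi-binomial model called 15, against 11.6%. At 54645858 testes with prefix 128 had 88.8, 90.4 and 95.5% (11 fish) and those with prefix 204 had 29.4, 85.4 and 90.5% (8 fish). The difference was 18.8 points (SE 8.61, exact permutation test, adjusted p = 0.00720). At 54645743 it was 16.5 points (SE 7.03, exact permutation test, adjusted p = 0.0116). With limma neither 54645858 (adjusted p = 0.155) nor 54645743 (adjusted p = 0.148) passed. The SD of the chromosome 16 level was 1.17 points with prefix 128 and 10.9 points with prefix 204. A permutation test of means can also respond to such unequal spread, so these calls do not rest on the means alone. The amplicons did not pass, with 6.38 points on chromosome 16 (SE 3.87, exact permutation test, adjusted p = 0.0637) and 1.43 points on chromosome 19 (SE 2.79, exact permutation test, adjusted p = 0.614), against 72.2% of amplicons called.

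These calls rested in part on the libraries that stood apart. Without fish 1 and 17 of prefix 204, 7 CpGs passed, all of them among the 14, against 24.3% of kept CpGs, and the amplicon differences were 0.834 points on chromosome 16 (exact permutation test, adjusted p = 0.575) and -1.99 points on chromosome 19 (exact permutation test, adjusted p = 0.403). The count was 8 when fish 1, 17 or 18 of prefix 204 was left out alone. The chromosome 16 amplicon passed when fish 2, 13 or 19 of prefix 204 was left out alone (lowest adjusted p = 0.0212).

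In ovaries from 28 °C the amplicon levels with the 2 prefixes lay close together. The differences were 0.988 points on chromosome 16 (exact permutation test, adjusted p = 0.885), -1.71 points on chromosome 19 (exact permutation test, adjusted p = 0.700) and -2.38 points on chromosome 25 (exact permutation test, adjusted p = 0.700), and 5.56% of amplicons were called. By CpG, 2 of 34 passed, against 3.74% of kept CpGs. Both lay on chromosome 25 and were lower with prefix 128, as were 1.02% of kept CpGs. At 22224443 the mean was 0.248% with prefix 128 (9 fish) and 18.0% with prefix 204 (9 fish), a difference of -17.7 points (SE 1.14, exact permutation test, adjusted p = 0.00202). At 22224492 it was 0% (8 fish) and 29.7% (9 fish), a difference of -29.7 points (SE 1.09, exact permutation test, adjusted p = 0.00202). The groups did not overlap at either CpG, against 2.04% of kept CpGs.

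These CpGs were close to 0% in each fish with prefix 128 that had at least 10 reads there, testes from 28 °C and ovaries alike. At 22224443 these were 16 of 34 fish, which had at most 1.67%, with 28 methylated of 11310 reads, or 0.248% (Wilson 95% interval 0.171 to 0.358%). The 35 of 39 fish with prefix 204 that had a level there had between 9.62 and 48.9%. At 22224492 there were 0 methylated of 942 reads in 12 fish with prefix 128, for which 3 reads of the total correspond to 0.318%, and between 16.1 and 72.5% in 35 fish with prefix 204. Reads were also scarce at 22224492 with prefix 128, where the fish had 5.81, 10.9 and 18.8% (lowest, median and highest of 16) of the mean number of reads at the CpGs on either side. With prefix 204 they had 38.2, 50.1 and 61.9% (35 fish), so the groups did not overlap. The 0% at 22224492 therefore rests on few of the reads that cover this amplicon. Neighbouring CpGs were methylated in the same fish with prefix 128, with 22.8 to 97.0% at 22224488 and 16.0 to 82.7% at 22224496, which lie 4 bp on either side of 22224492.

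Other CpGs took near-zero levels in some fish of most groups. At 54645721, 24 of 68 fish had less than 5%, while 1 had over 90%, and no fish lay between 49.9 and 72.9%. Fish below 5% were found in 5 of 11 testes from 36 °C and 8 of 13 from 28 °C with prefix 128, and in 0 of 8 testes from 36 °C and 2 of 10 from 28 °C with prefix 204. In ovaries they were 3 of 7 at 28 °C with prefix 128, 5 of 11 at 36 °C with prefix 204 and 1 of 8 at 28 °C with prefix 204. In those 24 fish the CpGs on either side had medians of 76.1% (54645699) and 76.7% (54645725).

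At 54645721 the level was lower with prefix 128 in testes of both temperatures. The differences were -26.1 points at 28 °C (SE 10.3, permutation test, adjusted p = 0.0279), where the fish had 0.423, 1.43 and 29.2% with prefix 128 (13 fish) and 0.154, 30.7 and 81.1% with prefix 204 (10 fish), and -31.9 points at 36 °C (SE 10.3, exact permutation test, adjusted p = 0.0113). The latter did not pass with limma (adjusted p = 0.1098) or the quasi-binomial model (adjusted p = 0.0646). The groups overlapped at both temperatures.

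On chromosome 19, 27435059 lies 3 bp from 27435056 and had less than 5% in 9 of 72 fish and over 90% in 2. In those 9 fish the level at 27435056 had a median of 94.4% (42.8 to 100%), against 67.6% (24.6 to 98.2%) in the other 63. The same fish also had higher medians farther off, with 63.6 against 42.2% at 27435238 and 91.1 against 82.0% at 27435321. The contrast was therefore not particular to the nearest CpG. It was not tested, and the groups of the fish were not taken into account. No comparison of temperature or prefix passed at 27435059. Genotype was not measured, so a T allele and an unmethylated C cannot be told apart at 54645721, 27435056, 27435059 and 22224443. The same holds for the reads that were counted at 22224492. With prefix 128 these were few, at a median of 10.9% of the mean number at the CpGs on either side (16 fish). Why reads were scarce there was not tested.

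**Figure D5:**
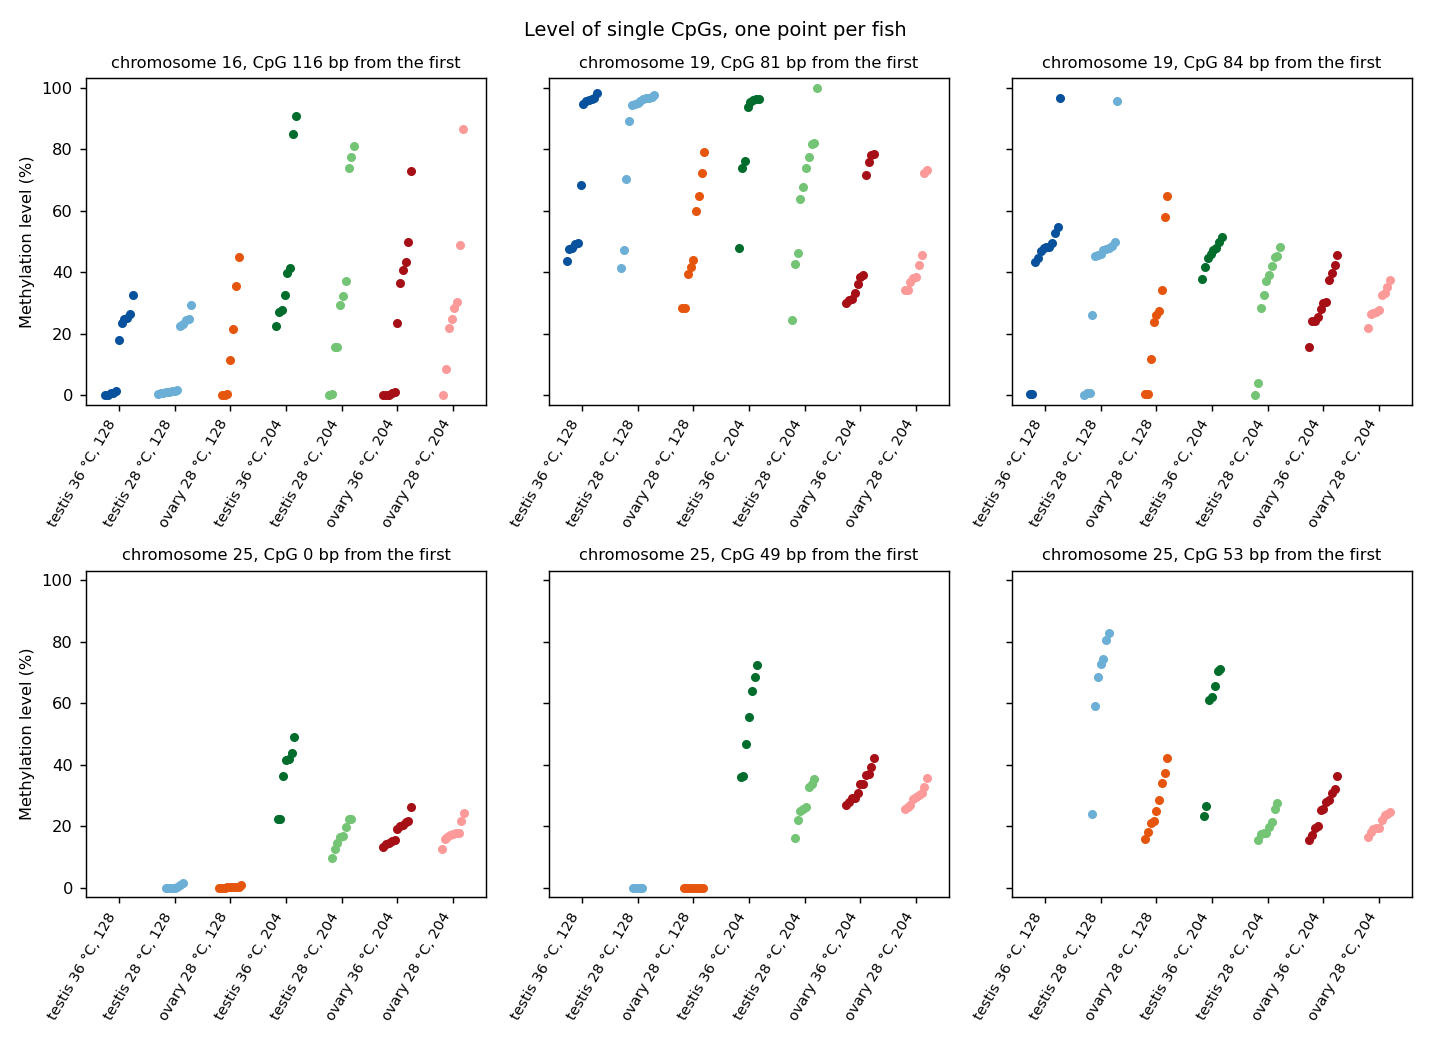
Methylation level (percent) of each fish by group at 6 CpGs with split or near-zero levels, 54645721 on chromosome 16, 27435056 and 27435059 on chromosome 19, and 22224443, 22224492 and 22224496 on chromosome 25. The fish with prefix 128 that have a level, 16 and 12, lie at or near 0% at 22224443 and 22224492, while their levels at 22224496 run from 16.0 to 82.7%.

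The base after the CpG was the other property read from the tables. Of the 34 CpGs, 5 stood in CGA, 15 in CGC, 6 in CGG and 8 in CGT, and of all 324 kept CpGs 78, 98, 72 and 76. The rise after 36 °C in testes with prefix 204 was called at 2 of 5 CGA, 9 of 15 CGC, 5 of 6 CGG and 8 of 8 CGT sites. Over all kept CpGs that were tested it was called at 24.4% of CGA, 28.1% of CGC, 31.9% of CGG and 35.6% of CGT sites. These counts were not tested, since CpGs of an amplicon share their reads and each context is spread unevenly over the amplicons.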

How the data were processed

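Per the labels' protocols, gonad DNA was extracted with phenol-chloroform, converted with bisulfite, amplified in a multiplex and sequenced. The submitters' processing notes name Bismark 16.0, Bowtie2, FastQC 0.11.6, Trim Galore 0.4.5 and the build GRCz10, without their order or settings. The sources used here do not give primers, conversion rates or the treatment of duplicate reads. The deposited tables hold, for each CpG, the read counts called methylated and unmethylated, with no normalization.

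A level was the percentage of methylated counts at a CpG with at least 10 reads in a fish. CpGs with a level in at least 50% of fish were kept, and those within 200 bp of each other formed amplicons of at least 2 CpGs. A fish had an amplicon level where at least 50% of its CpGs had one. Groups came from the labelled tissue and treatment and the title prefix, with treatments HT and LT read as 36 and 28 °C from the series' design text. Comparisons with at least 5 fish a side were tested by permuting fish between the groups, two-sided on the difference of means (100000 resamples, exact where a group had fewer than 10 fish), with Benjamini-Hochberg adjustment over all kept CpGs or all amplicons. The interaction was fitted in limma on the levels. The permutation test was also run on simulated data with independent CpGs and equal spread in both groups. That setting does not cover the unequal spreads or shared reads of these data. Python 3.11.15, numpy 2.4.6, pandas 2.3.3, scipy 1.17.1, matplotlib 3.10.9, R 4.3.3 and limma 3.58.1 were used.

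The amplicons, comparisons and the libraries set aside were chosen with earlier results of these data known. CpGs were named where they were among the 3 with the largest difference past the threshold in an amplicon and comparison, among the 2 with the largest or smallest gonad difference, or of highest or lowest mean level in an amplicon; others named in the text were chosen after their values were seen. Alternatives were other coverage minimums, limma, a quasi-binomial model on the counts, a replicate block, each fish left out, and the libraries that stood apart left out. The p-values set a difference against the variation between fish and take each fish as an independent replicate. No tank or family entered the tests, so any sharing of these within a group is not allowed for. No sequence or gene annotation of GRCz10 was used here.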

Additional observations from a re-analysis of the deposited data

Results flagged for a closer look

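Fish that lay far from the rest of their group were sought by the gap to the nearest fish as a share of the group's range, in 13 groups of amplicon levels and 76 groups of CpG levels with 4 to 10 fish. Chance alone marks about 1 in 20 groups, and here 1 amplicon level and 14 CpG levels were marked. At the amplicon on chromosome 16, fish 13 of the ovaries from 28 °C with prefix 204 had 77.06%, with the next fish at 64.5%. The same fish had 73.34% at 54645743 and, as the lowest of its group, 77.07% at 27435361.

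In testes with prefix 204, the CpG at 54645605 had a highest level of 98.9% after 36 °C (fish 11, 91 reads) and a lowest level of 78.74% after 28 °C (fish 9). On chromosome 19, fish 7 from 28 °C had the lowest level at 27434975 with 22.73% (22 reads), the highest at 27435238 with 92.68% (82 reads) and the lowest at 27435361 with 1.22% (82 reads). After 36 °C, fish 18 had 47.77% at 27435056 and fish 1 had 85.28% at 27435361, both the lowest of their group.

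On chromosome 25, fish 22 of the testes from 28 °C with prefix 128 was the lowest of its group, with 24.0% at 22224496, 72.83% at 22224550 and 49.61% at 22224607. This fish is 1 of the 4 libraries that stood apart at the amplicon level. Among ovaries from 28 °C, fish 10 with prefix 128 had the highest level at 22224443 with 1.02% (196 reads), and fish 4 with prefix 204 had the lowest at 22224550 with 64.52% (62 reads).

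The temperature difference in testes differed between the prefixes by the interaction term in limma, by 13.07 points on chromosome 16 (adjusted p = 0.0199) and by 12.61 points on chromosome 19 (adjusted p = 0.00829).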

How the results depend on the processing

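Of 168 alternatives other than single fish left out, 152 were counted as leaving a count of CpGs or an amplicon value unchanged. Another 6 lost a call and 10 moved a count by over 1.5 times. A value that passed in neither fit was counted as unchanged even where its direction turned. Without the libraries that stood apart, the chromosome 19 difference turned from 1.23 to -2.24 points for temperature in testes with prefix 128. It turned from 1.43 to -1.99 points for the prefix in testes from 36 °C. Gonad differences were not tested and had no call to keep. Limma called 0 CpGs for the prefix in testes from 36 °C, where leaving out fish 1 and 17 gave 7. The quasi-binomial model called 1 CpG for temperature in ovaries, and gave 7.17 points for the prefix on chromosome 25 in testes from 28 °C (adjusted p = 0.199). Coverage minimums of 30 and 100 reads left 1 CpG called for the prefix in ovaries. Without the 4 libraries that stood apart the interaction was called at 21 CpGs. The cause of these changes was not tested, except that the coverage minimums leave fewer fish. The gonad differences without those libraries or without fish 7 were added after seeing the data. With 1 fish left out, 449 of 455 values were counted as unchanged by the same rule. Among these, the temperature difference on chromosome 19 in testes with prefix 128 ran from -0.624 to 1.85 points. The prefix difference on chromosome 16 in ovaries ran from -1.25 to 3.15 points. The exceptions were the prefix in testes from 36 °C, with 8 to 17 CpGs called, and its chromosome 16 amplicon, with 3.80 to 7.88 points. Depth limits chromosome 25 most.

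With the fish number as a replicate block, testes with prefix 204 had 0 CpGs called for temperature, and amplicon differences of 20.7 (adjusted p = 0.302), 15.8 (adjusted p = 0.302) and 4.21 points (adjusted p = 0.529), while 22224488 turned to -2.70 points (adjusted p = 0.672). The first 2 rest on 3 shared numbers, and both chromosome 25 values on 1, that of fish 17, which stood apart. The block also gave 0 CpGs for the prefix in testes from 28 °C, with 22.8 points on chromosome 16 (adjusted p = 0.129) and 28.9 points on chromosome 25 (adjusted p = 0.129), and 0 CpGs for the prefix in testes from 36 °C and in ovaries. For the prefix in testes from 28 °C, the chromosome 19 amplicon kept its call. Each amplicon value of that comparison rests on 2 shared numbers. Of pairs with the same number, 2 of 3, 3 of 7, 1 of 6 and 0 of 5 had correlations above 0.1 for temperature in testes with prefix 204, in testes with prefix 128 and in ovaries, and for the prefix in testes from 36 °C. For the prefix at 28 °C, 2 of 2 pairs lay above 0.1 in testes (0.133 and 0.163). In ovaries 2 of 2 did too (0.159 and 0.473). The numbers were not taken to pair the fish, but so few pairs do not settle this. Under the block a difference rests on the fish whose number occurs in both groups.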
